A study of Mus musculus with 6 samples.

Results

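The genes described here encode growth factor receptors with tyrosine kinase activity, chosen by symbol: the FGF receptors Fgfr1 and Fgfr3, the EGF receptor family members Egfr, Erbb2 and Erbb3, the PDGF receptors Pdgfra and Pdgfrb, the IGF1 receptor Igf1r and the HGF receptor Met. Of 10 symbols listed, 9 were in the table of 29493 genes, and all 9 were among the 18067 genes tested; Fgfr2 is not analysed here. RNA was sequenced from HT22, a neuronal line derived from the mouse hippocampus, in a stable derivative labelled HT22-TR/TO-V5Klf13-1 that carries V5-tagged KLF13, a Krüppel-like zinc-finger transcription factor, under the tet repressor. Cells received 1 µg/ml doxycycline for 8 hours (Dox, n = 3), which releases the transgene, or vehicle (Vehicle, n = 3), and every library carried the transgene. No library here had doxycycline without the transgene, so an effect of the drug and an effect of KLF13 cannot be told apart. Whether each library had a culture of its own is not in the labels, and the p-values below describe variation among these libraries alone, which may be technical.

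Receptor tyrosine kinases are single-pass membrane proteins, most of which pair up when an extracellular ligand binds and phosphorylate each other's tails. Adaptor proteins dock there and pass the signal to the RAS and ERK kinases and to PI3 kinase, which drive growth, survival and, in neurons and glia, differentiation and process outgrowth. In the hippocampus FGF receptors act in progenitor division and synapse formation, the IGF1 receptor in neuronal survival, and the PDGF alpha receptor marks oligodendrocyte precursors, while the PDGF beta receptor marks pericytes and other mesenchymal cells.

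Libraries held 41595045 to 48171814 counts with Dox and 38566798 to 52930384 counts with vehicle. Klf13 was at 205, 188 and 184 CPM (counts-per-million, scaled to the effective library size) in the Dox libraries, against 37.0, 36.1 and 39.1 CPM in the Vehicle libraries. Of 60 cell type markers listed, 41 were in the table, which holds no gene at 0 in every library. Of the 20 neuronal markers listed, 11 were in it. Why the other markers have no row is not given in the sources used here. Over all 18067 tested genes 54.7% passed edgeR's quasi-likelihood test, 28.8% as lower and 25.9% as higher. The neuronal list summed to 26.7 to 29.0 CPM with Dox and 85.6 to 86.5 CPM with vehicle, mostly Tubb3, and of its 5 tested genes 3 fell and 1 rose. Slc17a7, the vesicular glutamate transporter of hippocampal excitatory neurons, stayed at or below 0.192 CPM. The fibroblast list, led by Col1a2, Col3a1 and S100a4, summed to 11939 to 12438 CPM with Dox and 14242 to 14762 CPM with vehicle, and of its 8 tested genes 5 fell and 0 rose. Pdgfra and Pdgfrb are also mesenchymal markers, and the part of the neuronal and fibroblast genes in the receptor values was not tested. The astrocyte list summed to 56.1 to 219 CPM with Dox and 73.5 to 204 CPM with vehicle, and the oligodendrocyte lineage list to 113 to 132 CPM with Dox and 189.6 to 204 CPM with vehicle. These ranges were set by Gja1, at 9.2 to 175 CPM with Dox and 34.9 to 166 CPM with vehicle, in the astrocyte list and by Cspg4 in the oligodendrocyte lineage list. The microglia list summed to 19.6 to 20.5 CPM with Dox and 29.6 to 31.9 CPM with vehicle, nearly all Tmem119, with Aif1, Cx3cr1, Itgam and P2ry12 at or below 0.212 CPM, and the endothelial and pericyte list to 4.08 to 5.36 CPM with Dox and 3.36 to 4.14 CPM with vehicle.

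Start-site sequence from the RefSeq table (GRCm38.p6, 250 bases before to 50 after an annotated start) was used for 6 of the 9 genes. Fgfr1 and Erbb3 had no usable entry. Pdgfrb was left out of the promoter search, so its motifs were not counted. Its test result was not the reason, as Fgfr3 did not pass either and was kept. The 4 promoters below are shown because 3 belong to genes that fell by nearly the same factor and 1 to a receptor gene that did not pass the test. All 4 are on the plus strand and written 5′ to 3′. Capitals mark the 2 motifs searched on both strands, GGGCGG (reverse complement CCGCCC), the GC box bound by SP and KLF factors, and CACCC (reverse complement GGGTG), the other core recognised by KLF factors.
Erbb2, chr11:98412234-98412533: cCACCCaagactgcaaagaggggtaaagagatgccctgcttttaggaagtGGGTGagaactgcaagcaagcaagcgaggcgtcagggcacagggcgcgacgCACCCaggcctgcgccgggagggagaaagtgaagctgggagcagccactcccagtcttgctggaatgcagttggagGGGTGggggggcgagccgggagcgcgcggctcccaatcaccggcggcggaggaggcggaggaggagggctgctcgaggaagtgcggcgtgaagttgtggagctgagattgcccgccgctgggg
Pdgfra, chr5:75152001-75152300: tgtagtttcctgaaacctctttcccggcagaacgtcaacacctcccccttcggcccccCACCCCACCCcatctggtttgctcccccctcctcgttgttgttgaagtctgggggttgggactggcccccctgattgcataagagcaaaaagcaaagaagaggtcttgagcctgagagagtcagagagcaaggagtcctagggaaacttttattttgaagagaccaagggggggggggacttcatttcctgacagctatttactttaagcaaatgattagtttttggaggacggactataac
Met, chr6:17463707-17464006: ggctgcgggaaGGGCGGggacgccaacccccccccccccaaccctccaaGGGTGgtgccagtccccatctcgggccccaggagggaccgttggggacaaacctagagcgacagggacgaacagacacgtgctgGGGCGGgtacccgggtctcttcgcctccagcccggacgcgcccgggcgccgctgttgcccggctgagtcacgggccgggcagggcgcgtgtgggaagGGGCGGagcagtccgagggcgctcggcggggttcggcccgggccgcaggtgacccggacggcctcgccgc
Fgfr3, chr5:33721474-33721773: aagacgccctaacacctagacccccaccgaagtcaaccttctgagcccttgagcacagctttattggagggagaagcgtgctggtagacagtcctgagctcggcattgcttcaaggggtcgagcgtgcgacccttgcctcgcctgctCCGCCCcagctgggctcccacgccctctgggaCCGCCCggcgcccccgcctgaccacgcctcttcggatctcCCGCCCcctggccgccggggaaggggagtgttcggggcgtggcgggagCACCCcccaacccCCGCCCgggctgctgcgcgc

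The promoters of Erbb2 and Pdgfra held no GGGCGG and 4 and 2 CACCC matches. That of Met held 3 GGGCGG and 1 CACCC, and the Fgfr3 start shown held 4 and 1. The other Fgfr3 start held 2 GGGCGG and no CACCC, Igf1r held 2 and none, and Egfr held 1 of each. Matches to the 2 motifs did not overlap each other in these windows. Of these 7 promoters, with Pdgfrb left out, 5 held GGGCGG and 5 held CACCC. The 7 came from 6 genes, as both Fgfr3 starts were counted. Among all 32851 RefSeq promoters of this length, 35.7% held GGGCGG, 57.5% held CACCC and 23.8% held both. Those promoters include genes not tested here, so the 2 sets are unlike, and enrichment was not tested. Genes that fell thus included promoters with CACCC alone (Erbb2, Pdgfra), GGGCGG alone (Igf1r) and both (Met, Egfr). With Pdgfrb left out, Fgfr3 was the only searched gene that did not pass. Motifs were therefore not compared between genes that fell and genes that did not pass. A match is a run of letters, not a measured binding site.

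Across the receptor genes, Dox libraries held less mRNA than Vehicle libraries for most. Of the 9 tested, 6 fell (Fgfr1, Egfr, Erbb2, Pdgfra, Igf1r and Met), 0 rose and 3 did not pass (Fgfr3, Erbb3 and Pdgfrb) by edgeR's quasi-likelihood test at an adjusted p under 0.05. Over all tested genes 54.7% passed, 28.8% as lower and 25.9% as higher. The median log2 fold change of the 9 was -0.67, beside 0.018 over all tested genes. An offset for the trend of fold change with transcript length made each of the 6 falls smaller. With it the log2 fold changes were -0.59 for Fgfr1, -1.85 for Egfr, -0.57 for Erbb2, -0.50 for Pdgfra, -0.14 for Igf1r and -0.50 for Met. The groups did not overlap for 7 of the 9, 6 of them lower with Dox, where 64% of all tested genes had groups that did not overlap and 32.2% did so as lower. Summed over the 9 genes, the libraries held 315, 328 and 289 CPM with Dox, against 444, 460.3 and 446 CPM with vehicle. In the authors' deposited table the same 6 genes are marked as changed, all lower. Of its 19125 genes with an adjusted p, 40.3% are marked and 22.4% are marked as lower. Its marks follow a stricter threshold, as the largest adjusted p among marked genes is 0.00999. At an adjusted p under 0.01, edgeR's test here called 5 of the 9, without Met, and 43% of all tested genes. In bulk RNA, fewer cells of a type and less RNA per cell cannot be told apart.

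**Figure D1:**
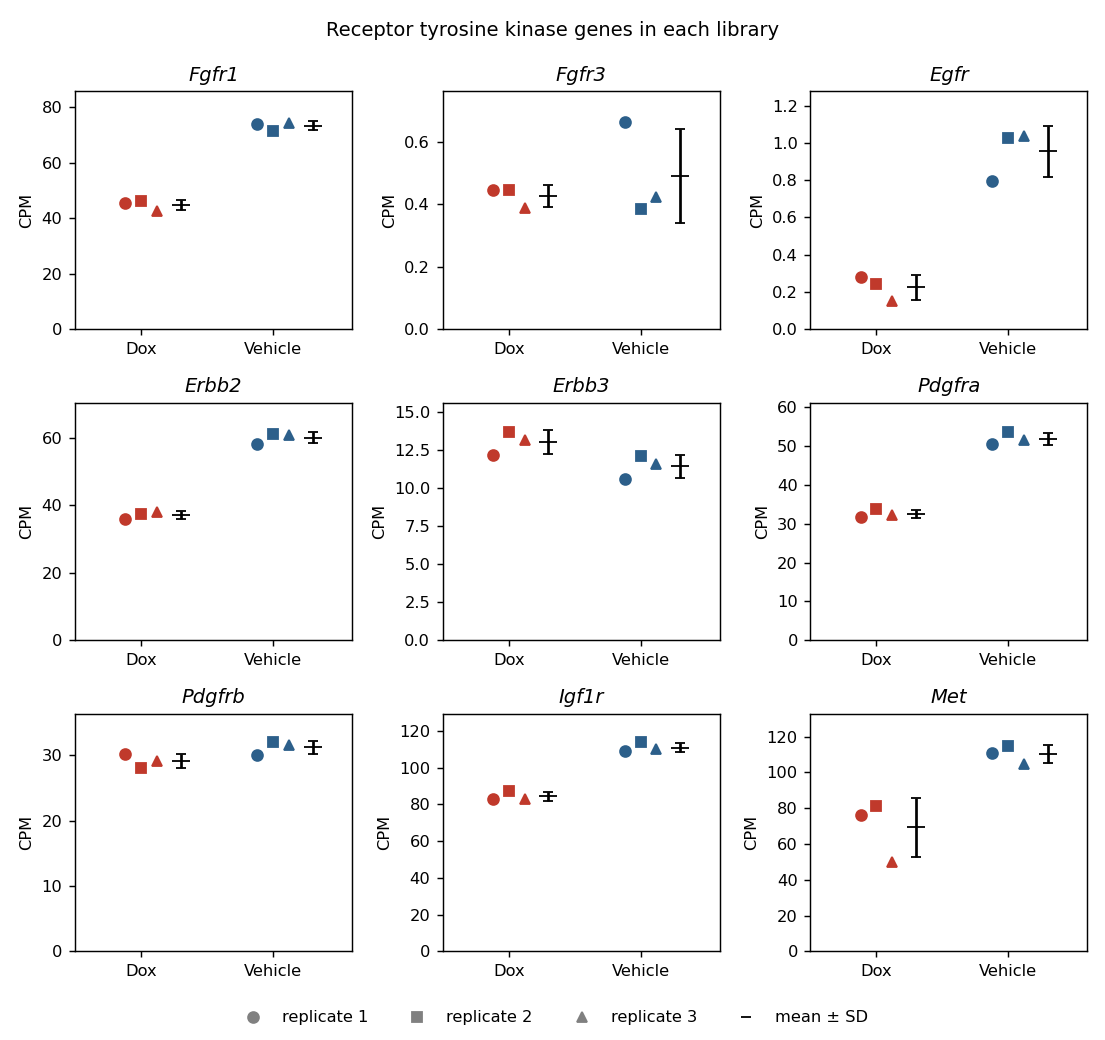
Level of each receptor gene in every library (CPM, counts-per-million scaled to the effective library size; each vertical axis starts at 0 and has its own scale), Dox on the left and Vehicle on the right, with replicates 1 to 3 as circles, squares and triangles and the mean ± SD beside them. For Fgfr1, Egfr, Erbb2, Pdgfra, Igf1r and Met every Dox library lies below every Vehicle library, and the Met value of Dox replicate 3, 50.1 CPM, lies apart from the other Dox libraries.

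Fgfr1, the FGF receptor of neurons and mesenchymal cells, lies at chromosome 8, 25513654 to 25575718, plus strand (GRCm38, GENCODE M21). It had 45.5, 46.0 and 42.7 CPM in the Dox libraries, against 74.0, 71.5 and 74.4 CPM in the Vehicle libraries. The groups were far apart and each spanned only a few CPM. The log2 fold change was -0.71 ± 0.039 (SE), a 1.64-fold fall (adjusted p = 1.7e-05). It shares 164 exonic bases with the antisense gene Gm16159, so a small part of its reads may belong there, as no strand setting is given in the sources used here.

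Fgfr3, a receptor for FGFs that is prominent in astrocytes and cartilage, was near the lower limit of what was tested. Its counts were 19, 22 and 18 with Dox, against 25, 16 and 22 with vehicle. The groups overlapped, and the difference was not detectable at this depth: the log2 fold change was -0.19 with a 95% interval of -0.79 to 0.41 (adjusted p = 0.59). The gene, at chromosome 5, 33721674 to 33737068, shares 998 exonic bases with the antisense gene G630022F23Rik. With no strand setting given, part of these few counts may belong to that gene.

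Erbb2, the ligandless member of the EGF receptor family that pairs with the others, had 35.8, 37.5 and 38.1 CPM with Dox, against 58.1, 61.1 and 60.7 CPM with vehicle. Every Dox library was below every Vehicle library by about the same distance. Its log2 fold change of -0.69 ± 0.039 (SE, adjusted p = 1.8e-05) was a 1.61-fold fall, within an SE of that of Fgfr1. The gene lies at chromosome 11, 98412470 to 98437716, and shares no exonic sequence with another gene.

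Erbb3, the neuregulin receptor with a weak kinase that relies on ERBB2, stood on the other side of zero. It had 12.2, 13.7 and 13.2 CPM with Dox, against 10.6, 12.1 and 11.6 CPM with vehicle. The lowest Dox library was barely above the highest Vehicle library. The log2 fold change of 0.19 (95% interval 0.02 to 0.37) had an adjusted p of 0.058, which missed the threshold, and it passed with upper-quartile scaling (0.29, adjusted p = 0.011), after a transcript length offset (0.35, adjusted p = 0.0024), at a mean of at least 5 CPM (0.21, adjusted p = 0.035) and with a replicate block (0.20, adjusted p = 0.024). Its position is chromosome 10, 128567523 to 128589652, minus strand.

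Egfr, the receptor for EGF and its relatives, had the largest fold change of the 9, on low counts. It had 12, 12 and 7 counts in the Dox libraries, against 30, 43 and 54 counts in the Vehicle libraries, or 0.225 ± 0.0675 CPM with Dox and 0.956 ± 0.14 CPM with vehicle (SD, n = 3 each). Both groups are low, and they did not overlap. The log2 fold change was -2.08 (95% interval -2.68 to -1.49, adjusted p = 4.8e-04), a 4.24-fold fall, while the authors' deposited table gives -1.50 ± 0.34 (SE) for it. Whether the deposited fold changes were shrunk for low counts is not given in the sources used here, and DESeq2's Wald test without shrinkage gave -2.10 from the counts. The gene spans chromosome 11, 16752203 to 16918158.

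Pdgfra, the PDGF receptor that binds the A, B and C ligands, had 31.7, 33.7 and 32.3 CPM with Dox, against 50.6, 53.6 and 51.6 CPM with vehicle. The groups were separated by more than any spread within them. Its log2 fold change of -0.67 ± 0.040 (SE, adjusted p = 2.2e-05) was a 1.6-fold fall. The gene, at chromosome 5, 75152292 to 75198215, shares 456 exonic bases with the antisense gene Gm42802 and 166 with Gm42803, also antisense.

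Pdgfrb, its relative that responds mainly to the B and D ligands, had 30.2, 28.1 and 29.1 CPM with Dox, against 30.0, 32.0 and 31.6 CPM with vehicle. The groups overlapped. The log2 fold change was -0.10 with a 95% interval of -0.21 to 0.01 (adjusted p = 0.12), which leaves out a fall of the size measured for Pdgfra. It lies at chromosome 18, 61045150 to 61085061.

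Igf1r, the receptor for IGF1 and IGF2, held 82.9, 87.4 and 83.2 CPM with Dox, against 109, 114 and 110.1 CPM with vehicle. The groups did not overlap. The log2 fold change of -0.39 ± 0.034 (SE, adjusted p = 1.1e-04), a 1.31-fold fall, was the smallest of the 6 that passed. It had the longest transcript of the 9 (11.4 kb), and an offset for the trend of fold change with transcript length took it to -0.14 ± 0.027 (SE, adjusted p = 0.0038), still past the test. Igf1r lies at chromosome 7, 67952827 to 68233668.

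Met, the receptor for hepatocyte growth factor, had 76.5, 81.1 and 50.1 CPM with Dox, against 111, 115 and 105 CPM with vehicle. Dox replicate 3 was well below the other Dox libraries, and all Dox libraries were below all Vehicle libraries. The log2 fold change was -0.67 ± 0.17 (SE, adjusted p = 0.017), a 1.59-fold fall with an SE several times that of Fgfr1. Without Dox replicate 3 it was -0.48 ± 0.051 (SE, adjusted p = 9.2e-04), and without Vehicle replicate 2 it was -0.64 ± 0.21 (adjusted p = 0.053), which missed the threshold. Met lies at chromosome 6, 17463800 to 17573980.

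**Figure D2:**
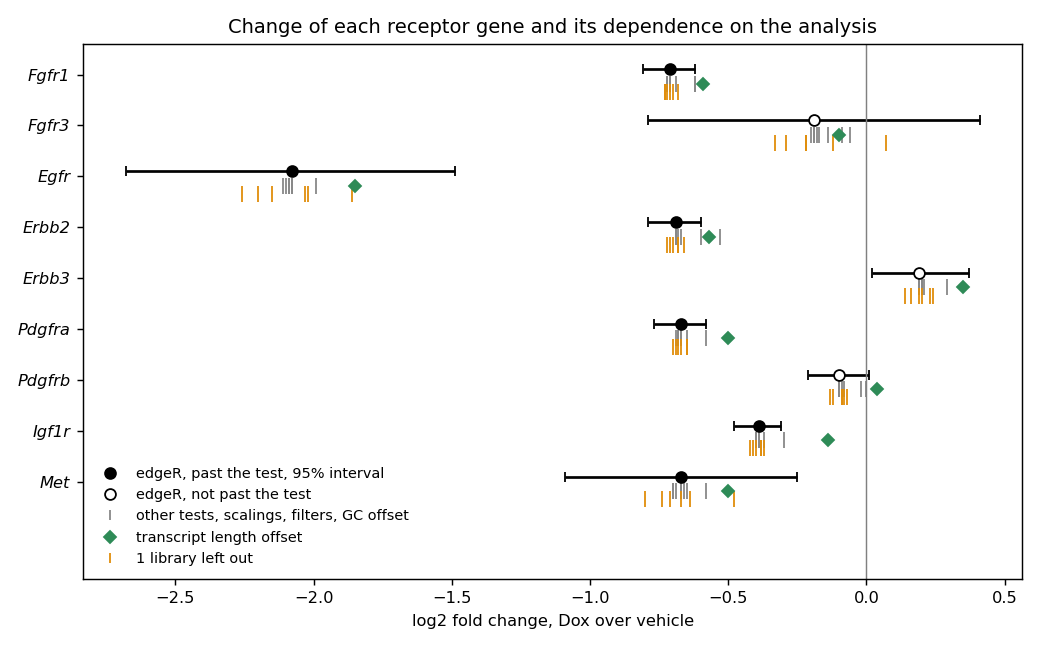
Log2 fold change of each receptor gene, Dox over vehicle (horizontal axis), with filled circles for genes past edgeR's test, open circles for the others and bars for 95% intervals. Below each are the values under other tests, scalings and filters (grey ticks), after a transcript length offset (green diamonds) and with 1 library left out (orange ticks); the 6 genes that fell stay below 0 throughout, while Pdgfrb reaches 0.04 and Fgfr3 0.07.

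Levels were compared between genes per kilobase of the longest annotated transcript. With Dox the order of mean levels was Met (10.2 CPM per kb), Fgfr1 (8.87), Erbb2 (7.41), Igf1r (7.40), Pdgfrb (5.38), Pdgfra (4.76), Erbb3 (2.17), Fgfr3 (0.1) and Egfr (0.0221). With vehicle it was Met (16.2 CPM per kb), Fgfr1 (14.5), Erbb2 (12), Igf1r (9.72), Pdgfra (7.60), Pdgfrb (5.75), Erbb3 (1.90), Fgfr3 (0.116) and Egfr (0.0937). Libraries of neighbours overlapped for Met and Fgfr1 and for Erbb2 and Igf1r with Dox, and for Fgfr3 and Egfr with vehicle. The PDGF receptor genes stood in opposite order in the Dox and Vehicle libraries, Pdgfrb above Pdgfra with Dox. Over the union of annotated exons, a length chosen after seeing the data, Erbb2 stood above Fgfr1 in both groups and Pdgfrb above Pdgfra in both. With Dox, Pdgfrb (5.32 CPM per kb) then stood above Igf1r (5.03), and both stood above Fgfr1 (4.53). With vehicle, Egfr (0.0844) stood above Fgfr3 (0.0685). Those orders depend on which isoforms the reads came from.

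Ratios of related receptors within a library do not depend on how libraries are scaled, and 5 were examined after the values above were seen. The count of Pdgfra over that of Pdgfrb was 1.05, 1.2 and 1.11 in the Dox libraries, against 1.69, 1.68 and 1.63 in the Vehicle libraries. Its mean log2 value was 0.16 ± 0.095 with Dox and 0.74 ± 0.026 with vehicle (SD, n = 3 each), a difference of -0.58. The count of Erbb2 over that of Erbb3 was 2.93, 2.74 and 2.88 with Dox, against 5.49, 5.07 and 5.25 with vehicle, a difference of -0.89 in log2. For Egfr over Erbb2 the difference was -1.43, and for Egfr over Erbb3 it was -2.32, both with at most 12 Egfr counts in a Dox library. Fgfr1 over Fgfr3 was 102, 103 and 110.3 with Dox, against 112, 186 and 175 with vehicle, where Fgfr3 counts set most of the spread. The groups did not overlap for any of the 5 ratios. Each had p = 0.1 by a two-sided exact permutation test (adjusted p = 0.1 over the 5), the smallest that 3 against 3 libraries allow. Apart from Egfr over Erbb2, each ratio set a gene that fell over one that did not pass. Egfr over Erbb3 is also the product of Egfr over Erbb2 and Erbb2 over Erbb3. The separation of the ratios is therefore not evidence beyond the single-gene results.

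**Figure D3:**
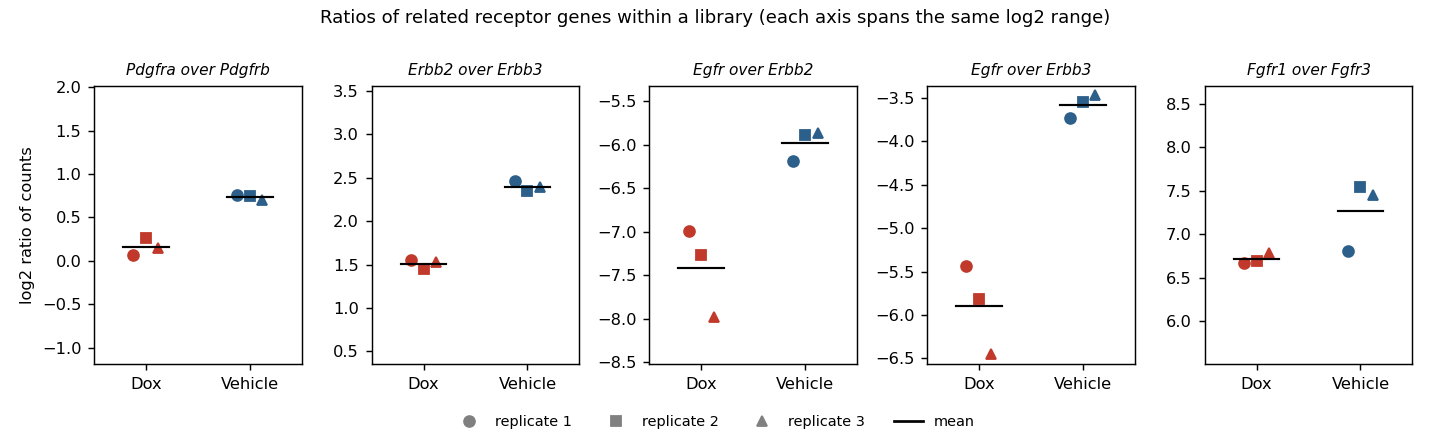
Log2 ratio of the counts of related receptor genes in each library, Dox on the left and Vehicle on the right, with replicates 1 to 3 as circles, squares and triangles and lines at the means; the 5 vertical axes span the same range. Dox libraries lie below Vehicle libraries in each panel, by 0.58 for Pdgfra over Pdgfrb and 0.89 for Erbb2 over Erbb3, with Egfr the most spread.

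Among the ligand genes, those for the PDGF receptors fell while 3 for the EGF receptor rose. Of 36 listed, 25 were in the table and 13 were tested, of which 4 rose, 6 fell and 3 did not pass (median log2 fold change 0.04). That is 76.9% called, where 54.7% of all tested genes were called, 28.8% lower and 25.9% higher. With a mean of at least 5 CPM, 6 of 7 ligand genes were called, beside 70.9% of all genes tested at that filter. Pdgfa had 16.7, 18.3 and 15.4 CPM with Dox, against 39.4, 36.9 and 37.0 CPM with vehicle, a log2 fold change of -1.17 ± 0.071 (SE). Pdgfb fell by 1.31 ± 0.066 and Pdgfc by 0.76 ± 0.033 on the log2 scale, so all 3 PDGF genes tested were lower. Pdgfa and Pdgfc overlap the noncoding genes 6330403L08Rik and Gm16000.

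Among EGF-type ligands, Areg (amphiregulin) had 2.91, 3.08 and 2.94 CPM with Dox, against 0.663, 0.865 and 1.29 CPM with vehicle. It rose 3.12-fold (log2 fold change 1.64 ± 0.22, SE, adjusted p = 9.0e-04). Egf rose by 0.64 ± 0.12 and Ereg (epiregulin), with 35.0 to 38.7 CPM in Dox and 27.2 to 27.8 CPM in Vehicle libraries, by 0.43 ± 0.047 on the log2 scale. Hbegf, the heparin-binding member of the same group, went the other way and fell by 0.63 ± 0.042 to 16.9 ± 0.0612 CPM with Dox, against 26.1 ± 0.837 CPM with vehicle (SD, n = 3 each). Nrg1, a ligand of ERBB3, fell by 0.48 ± 0.071 on the log2 scale, and Nrg4 did not pass (0.32, adjusted p = 0.34). Egf, Ereg, Nrg1 and Nrg4 share exonic bases with other annotated genes.

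For the remaining receptors, Igf1 rose by 0.72 ± 0.053 on the log2 scale, with 18.2, 20.1 and 19.7 CPM in Dox libraries, against 11.6, 11.9 and 11.7 CPM in Vehicle libraries. Its receptor gene Igf1r was lower in the same libraries. Fgf7, a ligand of the FGFR2 splice form found in epithelia, had 32.7 ± 0.568 CPM with Dox and 31.8 ± 0.584 CPM with vehicle (SD, n = 3 each), and its interval of -0.04 to 0.13 holds no large change. Fgf21, a hormone-like FGF, was at 0.457 ± 0.114 CPM with Dox and 0.719 ± 0.114 CPM with vehicle (SD, n = 3 each, adjusted p = 0.048). Hgf, the ligand of MET, was at 0.231 to 0.385 CPM in every library and did not pass (adjusted p = 0.58). Tested ligand genes other than Pdgfa, Pdgfb, Pdgfc and Hbegf are named to complete the families. Fgf2 was in the table but not tested. Its counts were 134, 6 and 2 in the Dox libraries, against 1, 86 and 5 in the Vehicle libraries.

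**Figure D4:**
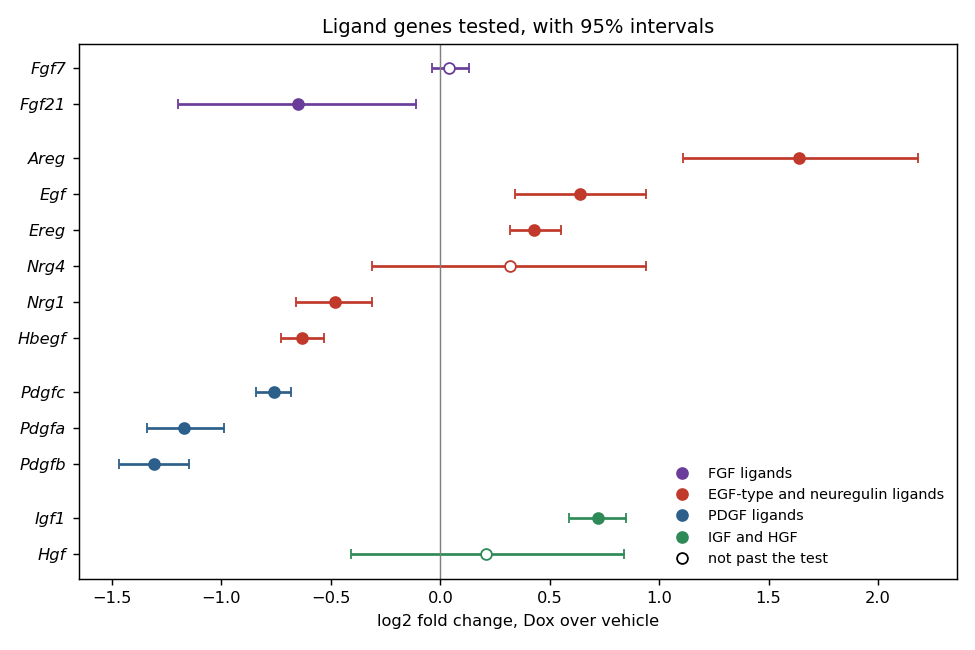
Log2 fold change, Dox over vehicle (horizontal axis), of the 13 ligand genes tested, with bars for 95% intervals from edgeR's test, colours for the families and open circles for genes not past the test. The 3 PDGF genes lie at -0.76 to -1.31, while Areg lies at 1.64 and Igf1 at 0.72.

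Receptor tyrosine kinase genes outside the 9, Eph receptors left aside, went both ways: 4 of 12 tested rose, 6 fell and 2 did not pass (median log2 fold change -0.12). This was 83.3% called, beside 54.7% of all tested genes, with 28.8% of all lower and 25.9% higher. With a mean of at least 5 CPM, 8 of 9 were called, beside 70.9% of all genes tested at that filter. Tyro3, a receptor for GAS6 and protein S, had 6.69, 6.69 and 6.13 CPM with Dox, against 44.3, 43.7 and 42.4 CPM with vehicle, a 6.68-fold fall (adjusted p = 9.9e-07). Its relative Axl, at 408 ± 4.78 CPM with Dox and 634 ± 18.8 CPM with vehicle (SD, n = 3 each), fell 1.56-fold, close to Pdgfra. Ddr1, a collagen receptor that overlaps Gm4577, fell by 1.48 ± 0.080 on the log2 scale. Insr, the insulin receptor and closest relative of Igf1r, rose by 0.61 ± 0.088 on the log2 scale, to 27.5 ± 2.1 CPM with Dox, against 18 ± 1.71 CPM with vehicle (SD, n = 3 each).

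Of 13 tested genes for co-receptors and proteins that hold ligands, 7 fell, 1 rose and 5 did not pass (median log2 fold change -0.14). The share called, 61.5%, was near the 54.7% of all tested genes (28.8% lower, 25.9% higher), and with a GC content offset 5 were lower and 2 higher. Fgfrl1, an FGF-binding receptor that lacks the kinase, fell 4.11-fold, to 3.18 ± 0.439 CPM with Dox, against 13.1 ± 1.11 CPM with vehicle (SD, n = 3 each). The heparan sulphate carriers Sdc1, Sdc4 and Gpc1, which help FGFs bind, fell by 1.83 ± 0.093, 0.33 ± 0.023 and 0.24 ± 0.025 on the log2 scale. Gpc1 shares 977 exonic bases with the antisense gene Ankmy1. Igf2r, which clears IGF2 and is named after its values were seen, was the 1 that rose (log2 fold change 0.49 ± 0.11).

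Downstream, 19 of 25 tested adaptor and exchange factor genes fell, 0 rose and 6 did not pass (median log2 fold change -0.52). The share lower was 76%, beside 28.8% of all tested genes, and 54.7% of all were called in either direction. With a mean of at least 5 CPM, 16 of 20 were called, all lower. At that filter 70.9% of all 11629 tested genes were called, 4176 of them lower. Sh2b2, an adaptor of insulin and growth factor receptors, fell 6.70-fold, to 1.31 ± 0.174 CPM with Dox, against 8.80 ± 0.389 CPM with vehicle (SD, n = 3 each). Src, the kinase many receptors recruit, had 29.4, 31.2 and 30.0 CPM with Dox, against 75.8, 74.2 and 72.9 CPM with vehicle. Its log2 fold change was -1.30 ± 0.036, and those of its relative Fyn and of Grb10, an adaptor that restrains the insulin and IGF1 receptors, were -0.81 ± 0.039 and -0.73 ± 0.024 (SE). This list had the largest share of falls among those in the plot of calls per list.

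RAS, RAF, MEK and ERK genes were mixed, with 7 of 17 lower, 4 higher and 6 not passing (median log2 fold change -0.09), or 64.7% called beside 54.7% of all tested genes. With a mean of at least 5 CPM, 10 of 16 (62.5%) were called, beside 70.9% of all genes tested at that filter. Shoc2, a scaffold for RAF activation that overlaps Bbip1, fell 2.58-fold. Map2k2, which encodes MEK2, fell to 105 ± 1.84 CPM with Dox, against 184 ± 7.61 CPM with vehicle (SD, n = 3 each), and the RAS relatives Mras and Rras fell by 0.59 ± 0.034 and 1.2 ± 0.074 on the log2 scale. Among genes for receptor shedding, trafficking and turnover, 10 of 23 fell, 3 rose and 10 did not pass (median log2 fold change -0.09). The share called, 56.5%, was close to the 54.7% of all tested genes (28.8% lower, 25.9% higher). Ptprf, a receptor tyrosine phosphatase, fell 3.81-fold, Rhbdf2, which escorts the sheddase ADAM17, fell 3.43-fold, and Eps15, an endocytic adaptor, fell 1.53-fold, while Lrig3, of the LRIG family of receptor regulators, rose 1.80-fold, to 39.7 ± 1.54 CPM with Dox, against 22.1 ± 0.367 CPM with vehicle (SD, n = 3 each).

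**Figure D5:**
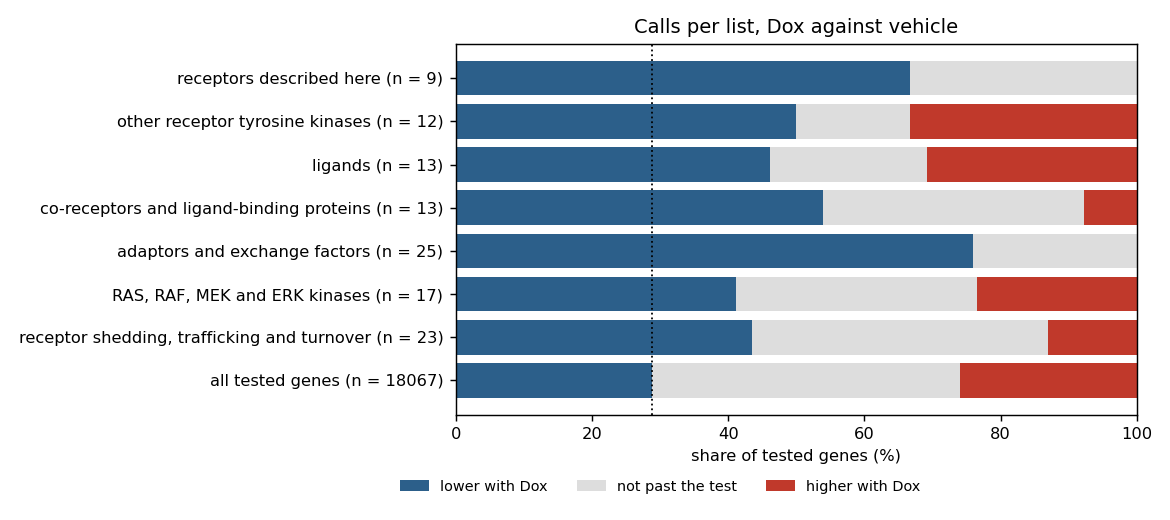
Share of tested genes (horizontal axis, percent) lower with Dox (blue), not past the test (grey) or higher with Dox (red) in each list, with all 18067 tested genes in the bottom bar and a dotted line at their share of falls, 28.8%. The receptors described here had 66.7% lower and none higher, beside 76% called, all lower, among adaptor and exchange factor genes.

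The gene with the smallest p of the 9 was Fgfr1, and 10055 other genes with a mean of at least 5 CPM, predicted and clone-based symbols left out, were ranked by Pearson's r of log2(CPM + 0.5) with it over the 6 libraries. Tead4, a transcription factor of the Hippo pathway, was most alike (r = 0.9999), with 27.7, 28.1 and 26.0 CPM with Dox, against 44.2, 43.1 and 44.6 CPM with vehicle. Mex3d, an RNA-binding protein gene, followed (r = 0.9998), with a log2 fold change of -1.06 ± 0.050 (SE). Both stood higher in every Vehicle library than in any Dox library. The pseudogene Bloc1s2-ps, whose reads may come from its parent gene, came next (r = 0.9997). These r values are descriptions over libraries that fall into a pair of groups, with no test.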

How the data were processed

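RNA of 3 Dox and 3 Vehicle libraries was counted by the authors, who deposited raw counts by gene symbol. Their comparison table holds, per the file headers, mean normalized signal over the libraries, log2 fold changes, standard errors, a statistic (score) and p-values. Tools named by the submitters' processing notes are StringTie 1.3.3, HISAT2 2.1.0, DESeq2 and FastQC 0.11.3, on GRCm38. How strand and multiply matching reads were handled, and the annotation, is not given in the sources used here.

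After filterByExpr and TMM scaling, edgeR 4.0.16's quasi-likelihood test (R 4.3.3) set Dox against vehicle without covariates, with Benjamini-Hochberg adjustment over all 18067 tested genes and a threshold of 0.05. Standard errors were taken as the log2 fold change divided by the root of the F statistic, and 95% intervals use the fit's degrees of freedom. The common biological coefficient of variation was 12.0%. Symbols were matched to GENCODE M21 (GRCm38; 27367 of 29493), which may differ from the authors' annotation, for positions, lengths and exonic overlap of at least 50 bases. The fit was tested on simulated data. Replicate pairs gave a chi-square per degree of freedom of 11.1 to 13.8, so none was 1 library deposited again. Other settings tried were upper-quartile scaling, size factors of DESeq2, its Wald test (1.42.0), limma-voom (3.58.1), no filter, at least 5 CPM on average, blocking on replicate number, a stricter threshold (0.01), length and GC offsets, and leaving out each library.

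The members and lists were chosen with earlier results of these data known. Named are the receptors, Klf13, up to 4 genes with the smallest p of each pathway list (past the test, mean of at least 1 CPM), and the 3 genes most like the receptor gene of smallest p. Ratios of related receptors and levels over the union of exons were added after seeing the data.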

Additional observations from a re-analysis of the deposited data

How the results depend on the processing

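Fgfr1, Egfr, Erbb2, Pdgfra and Igf1r fell and passed under every alternative that tested them; Egfr and Fgfr3 were not tested at a mean of at least 5 CPM. Met (-0.67) missed the stricter adjusted p of 0.01, and ranged from -0.80 to -0.48 with 1 library left out. Erbb3 passed as higher with upper-quartile scaling (0.29), at a mean of at least 5 CPM (0.21), with the length offset (0.35) and without Dox replicate 1 (0.24), and ranged from 0.14 to 0.24 with 1 library left out. Pdgfrb changed sign with the length offset (0.04), and Fgfr3 ranged from -0.33 to 0.07 with 1 library left out, above 0 without Vehicle replicate 1. Neither passed in any setting. The causes were not tested. The receptor genes called numbered 5 to 7. With a mean of at least 5 CPM, 6 of 7 receptor genes were called, 5 lower and 1 higher. At that filter 70.9% of all 11629 tested genes were called, 4176 as lower and 4072 as higher. Shares called were thus higher among well-expressed genes. At an adjusted p of 0.01, 6 other receptor tyrosine kinase genes passed in place of 10, and with a mean of at least 5 CPM 6 ligand genes in place of 10, as 7 rather than 13 were tested.

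Over all genes, 4687 were higher and 5203 lower; with upper-quartile scaling the median over tested genes was 0.111 in place of 0.018, with 6246 higher and 4457 lower. Same-numbered libraries' deviations correlated at 0.069, 0.052 and -0.094 over 14635 genes, and not every library correlated best with its own number, so the numbers were not taken as pairs. A replicate block gave 9699 calls in place of 9890, and with it Erbb3 was at 0.20 and passed (adjusted p = 0.024). The low counts of Egfr and Fgfr3 limit the precision of both.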
